A study of Mus musculus with 4 samples.

Results

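Promoter sites with a single direction of transcription were taken as the autosomal accessible sites whose midpoint lay no more than 1 kb from where transcription of a protein-coding gene starts (its TSS) and that had TSSs of only one strand, of any gene type, within that distance. They numbered 9618 of the 82325 sites deposited (the remainder being mostly the 65569 autosomal sites more than 1 kb from every TSS, here called distal sites, and 2535 bidirectional promoter sites) and were assigned to 8633 genes. Of these genes, 7683 had 1 such site, 916 had 2, 33 had 3 and 1 had 4.

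Open chromatin was profiled by ATAC-Seq: the transposase Tn5 inserts sequencing adapters into open DNA. There were 4 libraries from mouse embryonic fibroblasts (MEFs) of C57bl6 background, 2 from HAT1+/+ lines (WT) and 2 from HAT1-/- lines (KO). HAT1 is the enzyme that acetylates newly made histone H4 before it is deposited behind the replication fork. The comparison asks how its loss alters chromatin accessibility. All lines, the controls included, were grown in DMEM with 10% serum and had been immortalized by transfecting primary MEFs from mid-gestation embryos with a plasmid for SV40 T antigen. The KO embryos carried no functional HAT1 allele. The sources used here name no cloning step, and the labels of WT replicate 1 and KO replicate 2 share a number whose meaning is not given. A difference between genotypes and a difference between individual lines cannot be told apart. With 2 lines per genotype, p-values measure only the spread between these lines.

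A promoter is the stretch of DNA around a TSS on which RNA polymerase II and the general transcription factors assemble. In active or poised genes it is kept free of nucleosomes, which makes it one of the places that Tn5 cuts best. Many mammalian promoters lie in CpG islands, stretches that keep their CG dinucleotides and are mostly unmethylated, whereas CpG-poor promoters tend to belong to genes used in few tissues.

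The base composition of the promoters that the results turn on is shown here by 9 stretches of 150 bases, each from 120 bases before the TSS to 30 bases counted from it, read in the direction of the gene from the RefSeq copy of GRCm38 (mm10) at the GENCODE TSS. CG dinucleotides are in capitals. The first set holds the 6 sites with the largest falls among those called lower in KO below.

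Gm3468, chr14:6108636-6108785, minus strand: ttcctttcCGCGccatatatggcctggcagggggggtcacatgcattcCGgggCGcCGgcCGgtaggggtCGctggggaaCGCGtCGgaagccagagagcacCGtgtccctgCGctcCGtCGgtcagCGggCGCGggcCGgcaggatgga
Serpinb8, chr1:107589886-107590035, plus strand: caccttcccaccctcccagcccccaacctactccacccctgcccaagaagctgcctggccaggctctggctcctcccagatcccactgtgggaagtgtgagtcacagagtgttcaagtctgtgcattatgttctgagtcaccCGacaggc
Kcnip4, chr5:49524878-49525027, minus strand: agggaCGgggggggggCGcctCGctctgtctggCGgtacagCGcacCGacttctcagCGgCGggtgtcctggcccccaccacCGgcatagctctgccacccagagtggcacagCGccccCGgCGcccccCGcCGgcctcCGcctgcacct
Brinp1, chr4:68954368-68954517, minus strand: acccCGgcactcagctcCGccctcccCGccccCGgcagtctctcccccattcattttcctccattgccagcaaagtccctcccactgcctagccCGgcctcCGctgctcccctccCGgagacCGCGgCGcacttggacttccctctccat
Pcdh20, chr14:88471367-88471516, minus strand: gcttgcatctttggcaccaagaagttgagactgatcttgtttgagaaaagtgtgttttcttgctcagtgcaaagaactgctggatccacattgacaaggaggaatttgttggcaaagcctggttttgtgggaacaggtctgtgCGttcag
Cyp2j9, chr4:96591549-96591698, minus strand: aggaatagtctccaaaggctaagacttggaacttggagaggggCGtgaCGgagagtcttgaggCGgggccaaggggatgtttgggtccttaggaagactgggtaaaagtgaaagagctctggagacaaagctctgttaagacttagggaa

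The second set holds 3 of the 5 promoter sites with the highest mean signal, shown for contrast (the other two lie on a chromosome that is not printed).

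Gsk3b, chr16:38088881-38089030, plus strand: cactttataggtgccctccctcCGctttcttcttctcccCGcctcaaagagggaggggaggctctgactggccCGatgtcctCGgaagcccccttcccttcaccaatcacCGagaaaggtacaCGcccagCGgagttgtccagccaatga
Jun, chr4:95052193-95052342, minus strand: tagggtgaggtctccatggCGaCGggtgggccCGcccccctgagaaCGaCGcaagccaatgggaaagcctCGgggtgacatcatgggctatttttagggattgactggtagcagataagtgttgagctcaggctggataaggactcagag
Khsrp, chr17:57031493-57031642, minus strand: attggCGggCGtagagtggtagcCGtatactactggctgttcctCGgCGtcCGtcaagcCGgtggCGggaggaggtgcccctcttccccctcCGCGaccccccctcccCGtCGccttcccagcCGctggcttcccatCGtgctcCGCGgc

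The stretches of the called genes ran from 1 CG dinucleotide each in Serpinb8 and Pcdh20, through 3 in Cyp2j9 and 10 in Brinp1, to 15 in Kcnip4 and 18 in Gm3468. The strong promoters held 7 (Gsk3b), 6 (Jun) and 16 (Khsrp). CG-dense and CG-sparse promoters were thus present among the falls, and the CG number did not separate the sets. For Pcdh20 the stretch lies just outside the accessible site, whose midpoint was 375 bp downstream of the TSS.

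Promoter sites were stronger and more alike between libraries than distal sites. Their median value was 193 and 181 normalized counts (read counts divided by a factor per library and rounded by the authors) in WT replicates 1 and 2 and 189 and 186 in KO replicates 1 and 2, against 44 in each library for distal sites. They were also longer, with a median of 766 bp against 410 bp, but per kb of site the median in WT replicate 1 was still 245 against 111. They held 24.9 to 26.6% of the normalized counts of a library. Bidirectional promoter sites were stronger again, with library medians from 275 to 295. Across promoter sites the Spearman correlation between libraries was 0.959 to 0.972 (0.771 to 0.854 across distal sites), given as a description since the sites of a library share its depth. The lowest value was that between the KO libraries. The SD of the log2 difference between the WT libraries was 0.396 over promoter sites and 0.744 over distal sites, and between the KO libraries 0.545 and 1.00. Bidirectional promoter sites had smaller SDs still, at 0.291 and 0.409. The SDs went with signal. In the weakest of 5 equal classes of promoter sites by mean signal they were 0.636 and 0.896, and in the strongest 0.169 and 0.245. The approximate number of reads behind the promoter values was 2500000 and 2840000 in WT and 1990000 and 1460000 in KO, so KO values carried more counting error. It was read from the uneven frequencies that scaling and rounding leave among low values. Of the whole numbers from 1 to 100, 7 and 34 were absent in KO and 0 in each WT library.

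By normalized count per site, not per length, the strongest promoter site was that of Gsk3b, a kinase of glycogen and Wnt signalling, with 1172 and 1264 normalized counts in WT and 1307 and 1624 in KO. The immediate early gene Egr1 had 1232 and 1274 in WT and 1327 and 1212 in KO, and Jun, an AP-1 subunit, had 1101 and 1210 in WT and 1275 and 1338 in KO. The genotypes did not overlap at Gsk3b and Jun and overlapped at Egr1. Sap130, a subunit of the Sin3 corepressor complex, had 1398 and 892 in WT and 948 and 1522 in KO, a spread within each genotype larger than the difference between them. Khsrp, an RNA-binding protein, had 1004 and 1072 in WT and 1179 and 1417 in KO. The log2 fold changes (KO against WT, on log2 of the value + 1) were 0.26 (SE 0.11, Gsk3b), 0.02 (SE 0.07, Egr1), 0.18 (SE 0.07, Jun), 0.11 (SE 0.27, Sap130) and 0.32 (SE 0.10, Khsrp), and none passed the call below.

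The promoter site of the targeted gene itself, Hat1 (chr2:71388852-71389931, midpoint 433 bp downstream of the TSS), had 390 and 384 normalized counts in WT and 438 and 368 in KO. The genotypes overlapped, with a log2 fold change of 0.05 (SE 0.14, limma adjusted p = 1). This site therefore could not serve to check which libraries were KO.

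The labelled cell type was checked against marker promoters. Of 25 autosomal fibroblast markers, 20 had any site within 1 kb of the TSS and 18 had a site of the kind described here. Vim, the fibroblast intermediate filament, stood at 759 and 810 in WT and 977 and 919 in KO. The stronger Col1a1 site, of a collagen I chain, stood at 319 and 290 in WT and 327 and 343 in KO. Its midpoint lay 845 bp downstream of the TSS. The Col1a1 site at the TSS stood at 171 and 205 in WT and 167 and 262 in KO. Dcn was weak, at 18 and 25 in WT and 9 and 30 in KO, as was Mmp2, at 43 and 36 and at 43 and 21. Of the 21 fibroblast sites, 3 lay in the weakest of 5 equal classes of mean signal and 7 in the strongest. Of the markers of other tissues, 5 of 12 epithelial, 4 of 8 endothelial, 2 of 9 blood cell, 6 of 9 neural, 1 of 10 muscle, 0 of 8 liver and 1 of 8 germ line and pluripotency genes had a site, against 12037 of 20807 protein-coding genes (57.9%) in all. The median value of the 5 epithelial sites was between 18 and 36 in the libraries, against 177 to 239 for the fibroblast sites. Other tissues stood between, at 62 to 125 (endothelial, 3 sites), 86 to 118.5 (blood cell, 2 sites) and 66.5 to 108.5 (neural, 8 sites). The 1 muscle site had 63 to 93 and the 1 germ line site 48 to 138. The medians of all promoter sites, 181 to 193, lay inside the fibroblast range, and 9 of the 21 fibroblast sites lay below the median signal. Housekeeping genes had a site in 15 of 17 cases.

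The overall level of promoter sites did not separate the genotypes. The library medians of log2(value + 1) were 7.60 and 7.51 in WT and 7.57 and 7.55 in KO, so the KO values lay inside the WT range. The difference, KO minus WT, was 0.0045 (exact permutation test, two-sided, p = 1). Distal sites had the same median of 44 in every library. The median promoter stood 2.11 and 2.02 above it in WT and 2.08 and 2.06 in KO on the log2 scale. This contrast therefore repeats the first one and adds no second result. With 2 libraries a genotype the smallest p this exact permutation test can give is 0.333. Counting the repeat, 6 such contrasts were computed, with Benjamini-Hochberg values of 0.667 or 1. The median log2 fold change was 0.0159 over the promoter sites, 0.0062 over all sites and 0.0672 over bidirectional promoter sites. Its sign turned negative under equal library totals (-0.052), quantile normalization (-0.0684) and without WT replicate 2 (-0.0352).

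At single promoters, a fall was called at 25 sites and a rise at 0 sites (limma with an intensity trend over all 82325 sites, unadjusted p under 0.01 and at least 2-fold). Over the whole set of 82325, the share called lower was 0.302% and the share called higher 0.0705% (0.373% in either direction), so the 25 sites, 0.260% of 9618, were a share slightly below the background. That background is mostly distal sites of lower signal. In the weakest of 5 equal classes of promoter sites by mean signal 0.780% were called lower, against 0.310% of distal sites. No promoter site had an adjusted p under 0.05 (limma, all were 1), while 364 (3.78%, 159 lower and 205 higher) had an unadjusted p under 0.05, against 3.13% of all sites. The shares of 3.78 and 3.13% are below what the threshold of 0.05 alone would give if no site differed. Each of the 25 had both KO values below both WT values, as did 1499 promoter sites in all (15.6%), beside a background of 14.3%. The reverse order, both KO values above both WT values, was found at more promoter sites, 1872 (19.5%, background 14.6%). In fits that left out 1 library, the spread was taken from the other genotype alone. Their numbers of calls therefore cannot show whether the 25 rest on single libraries. The log2 fold changes of all 25 sites stayed negative in each of these fits.

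**Figure D1:**
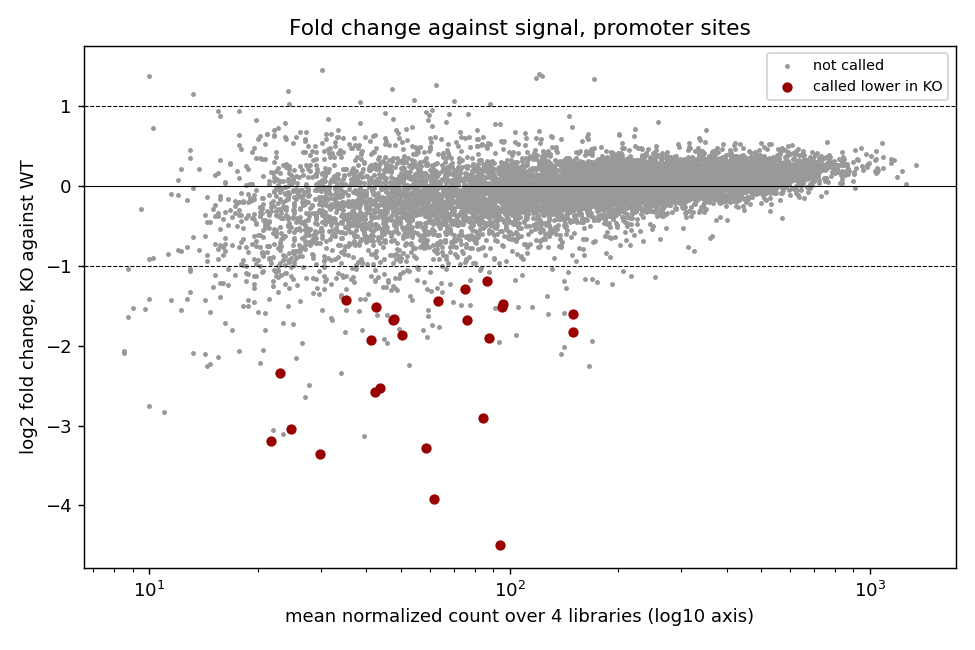
Log2 fold change (KO against WT, on log2 of the value + 1) against the mean normalized count over 4 libraries, 1 point per promoter site (n = 9618), with dashed lines at a 2-fold change. The 25 sites called lower in KO (red) have means from 21.8 to 150, all below the median of 189, a mean that includes the lowered KO values, and the fold changes narrow around 0 as the signal grows.

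The called sites had mean values from 21.8 to 150 normalized counts, and none reached the median of all promoter sites (189), so they are named here after their values were seen. That mean covers all 4 libraries, so the fall itself lowers it. The WT means alone ran from 39 to 231 with a median of 93, and 2 of the 25, Thbd and Gm8113, stood above the median WT mean of all promoter sites (187.5). Gm3468, a predicted gene, had 191 and 167 in WT and 15 and 3 in KO (log2 fold change -4.49, SE 0.67). Only 23.8% of the 31-base words of that site occur once in the genome, with a median of 6 copies, and its value is uncertain for that reason. Gm8113, another predicted gene on chromosome 14, had 257 and 188 in WT and 47 and 108 in KO, with 51.2% of words unique. Of the other 23 called sites all but Cd59a (89.4%) were unique throughout, as were 8108 promoter sites in all.

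Promoters that were almost closed in both KO lines came next. Serpinb8, a serine protease inhibitor, had 103 and 130 in WT and 9 and 5 in KO, with a log2 fold change of -3.91 (SE 0.45). Kcnip4, a partner of voltage-gated potassium channels, had 38 and 71 in WT and 8 and 2 in KO. Brinp1, a neural growth inhibitor, had 68 and 147 in WT and 8 and 11 in KO. In these 3 promoters no KO library kept more than 11 normalized counts. Pcdh20, a protocadherin, went from 42 and 38 to 4 and 3, and Cyp2j9, a cytochrome P450, from 43 and 45 to 2 and 9. Pcsk5, a proprotein convertase, had 170 and 129 in WT and 20 and 18 in KO (log2 fold change -2.90, SE 0.34).

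By size of fall, these were followed by Grin3a, an NMDA receptor subunit, at 71 and 70 in WT and 5 and 23 in KO, Dlgap1, a postsynaptic scaffold, at 94 and 56 in WT and 8 and 17 in KO, and Kcnt2, a sodium-activated potassium channel, at 47 and 31 in WT and 5 and 9 in KO. In each of them KO replicate 1 was the lower KO line. Cdh6, a cadherin, had 99 and 59 in WT and 14 and 29 in KO. It too fell further in KO replicate 1 than in KO replicate 2.

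Thbd (thrombomodulin, an anticoagulant receptor) had the highest mean WT level of the called sites, at 224 and 238, and 93 and 44 in KO. Sfrp2, a secreted Wnt antagonist, had 169 and 115 in WT and 51 and 48 in KO. Cd59a, an inhibitor of complement, had 90 and 124 in WT and 48 and 38 in KO. Their log2 fold changes were -1.83 (SE 0.39), -1.48 (SE 0.32) and -1.29 (SE 0.34). The metalloprotease gene Adamts15 had 82 and 64 in WT and 18 and 27 in KO, and Galnt14, which starts O-linked sugar chains, had 68 and 59 in WT and 23 and 20 in KO.

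Ehd3, of endocytic recycling, had 114 and 161 in WT and 52 and 24 in KO. Ktn1, a kinesin anchor, had 70 and 60 in WT and 11 and 24 in KO, from a site of 289 bp. In both genes the KO lines differed from each other by more than 2-fold. The RNA-binding protein gene Khdrbs3 had 122 and 120 in WT and 58 and 47 in KO, the smallest fall of the 25 (log2 fold change -1.20, SE 0.29). The Rac regulator Chn2 had 95 and 91 in WT and 32 and 35 in KO, and the zinc finger gene Zik1 had 137 and 147 in WT and 54 and 44 in KO. At these last 3 promoters the lines of a genotype lay close together. Fbxo16, an F-box protein, and Vat1l were also among these sites, at 100 and 48 in WT and 22 and 20 in KO, and at 58 and 46 in WT and 19 and 18 in KO.

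**Figure D2:**
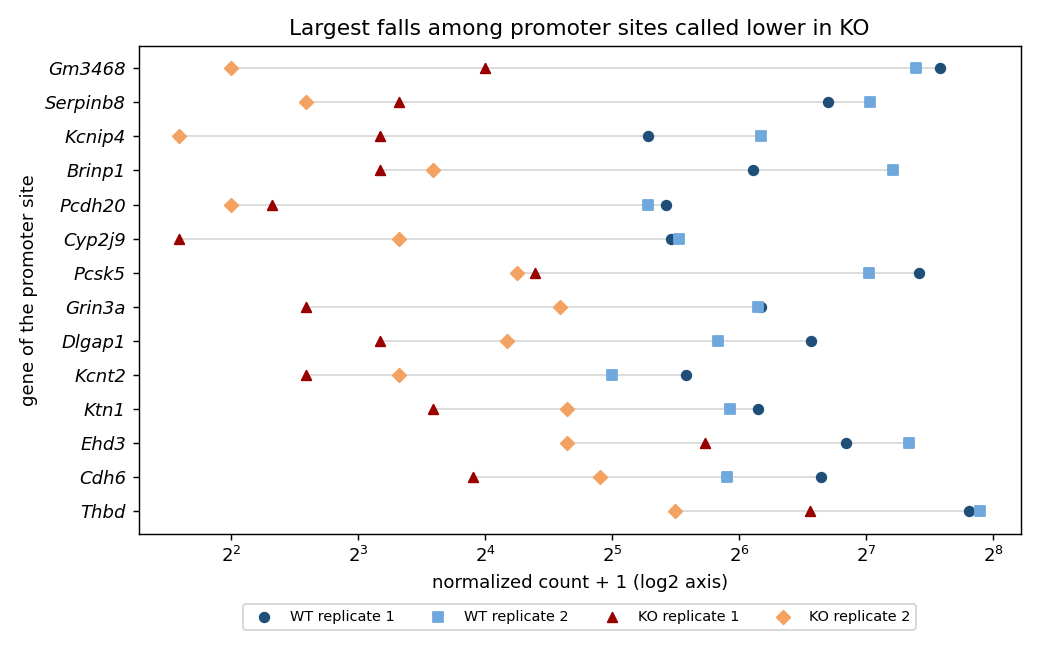
Normalized count + 1 (log2 axis) of each library at the 14 promoter sites with the largest falls among those called lower in KO, ordered from Gm3468 to Thbd. Blue circles and squares are WT replicates 1 and 2, and red triangles and orange diamonds are KO replicates 1 and 2. Both KO points lie left of both WT points in every row.

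Most of the called promoters lay in gene-poor surroundings. By the number of protein-coding TSSs within 0.5 Mb on each side, 17 of the 25 lay in the gene-poorest of 4 equal classes (1 to 8 TSSs) and 0 in the gene-richest (27 to 73), and their median was 5 TSSs against 15 for all promoter sites. By base composition, 13 were CpG-rich (observed over expected CG of at least 0.6 and GC of at least 55% in 500 bases at the TSS), 5 intermediate and 7 CpG-poor (observed over expected under 0.4), beside 69.9, 18.5 and 11.6% of all promoter sites. The distal sites within 0.5 Mb were mostly lower in KO as well. Their mean log2 fold change was below 0 around 23 of the 24 called promoters that had any, with a median of -0.62, against -0.0158 around all promoter sites. Some means rest on few sites, 1 each at Cyp2j9 and Zik1 and 2 at Kcnt2. With at least 5 distal sites, the mean was -0.5 or lower around 10 called promoters, between -0.5 and 0 around 8, and between 0 and 0.5 around 1. These ranges held 199, 5101 and 4185 of 9512 promoter sites. Gm3468 had no distal site to compare. In the 300 bases from 250 before the TSS to 50 after it, a GC box (GGGCGG, both strands) was in 11 of the 25 and a CCAAT box (CCAAT, both strands) in 5, beside 63.7 and 37.0% of all promoter sites.

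Fold changes went with gene number over all promoter sites as well. In the gene-poorest class (2478 sites), library medians were 178 and 167 in WT and 166.5 and 165 in KO, and in the gene-richest (2378 sites) they were 203.5 and 192 in WT and 204 and 203 in KO. From the poorest to the richest class, the median log2 fold changes were -0.0298, 0.0031, 0.0218 and 0.0556. A fall of at least 2-fold, with no test, was found at 139, 39, 30 and 19 sites, or 5.61, 1.58, 1.31 and 0.799% of each class. Over all promoter sites the share was 2.36% (227 sites), and over all sites 4.84%. The gap between gene-poor and gene-rich promoters, as a difference of medians on the log2 scale, was -0.19 and -0.20 in WT and -0.29 and -0.30 in KO. The genotypes did not overlap, and the exact permutation p was 0.333, the smallest possible. The KO minus WT difference in this gap was -0.0983, and it lay between -0.144 and -0.0788 in the alternatives run.

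The gene-poorest class held more CpG-rich sites than the gene-richest (1792 of 2478 against 1509 of 2378) and more sites below the median signal (1335 against 1118), so the counts of 2-fold falls were also taken within these strata. Among CpG-rich promoters of the gene-poorest class, 80 of 1792 (4.46%) were at least 2-fold lower in KO, against 1 of 1509 (0.0663%) in the gene-richest class. Among CpG-poor promoters the shares were 24 of 222 (10.8%) and 15 of 360 (4.17%). Among promoters below the median signal they were 135 of 1335 (10.1%) and 19 of 1118 (1.70%), and among those at or above it 4 of 1143 (0.350%) and 0 of 1260. Among these 4, KO replicate 2 stood above both WT lines at Epha7 and Fbxl7 and below both at Rprm and Pdzrn3. The KO lines differed more in gene-poor surroundings. The SD of their log2 difference was 0.70 in the gene-poorest class and 0.46 in the gene-richest, against 0.45 and 0.39 for the WT lines.

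Promoter levels differed by base composition. The 6721 CpG-rich sites had library medians from 213 to 226 and the 1119 CpG-poor sites from 69 to 78. CpG-rich sites were also longer (827 against 503 bp), and per kb the medians in WT replicate 1 were 266 and 155. The gap between CpG-poor and CpG-rich promoters on the log2 scale was -1.52 and -1.53 in WT and -1.60 and -1.68 in KO, again without overlap and again at the smallest possible exact permutation p of 0.333. The KO minus WT difference in the gap was -0.114, and -0.0313 after quantile normalization.

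Fold changes also went with the strength of the promoter. In the weakest of 5 equal classes of mean signal, library medians were 47 and 37 in WT and 36 and 33 in KO, with 183 of 1924 sites at least 2-fold lower in KO and 9 at least 2-fold higher. In the strongest class they were 437 and 427 in WT and 463 and 482 in KO, with no site past 2-fold either way. Median log2 fold changes increased through the 5 classes, from -0.26 and -0.0917 to 0.0153, 0.0521 and 0.13. The classes rest on the values themselves, so the mean and the difference are not independent, and these are given as a description. The WT lines also differed along the signal: in the weakest class WT replicate 1 was above WT replicate 2 by a median of 0.29 on the log2 scale, against -0.26 for KO against WT. The median of the weakest class was -0.112 without WT replicate 1 and -0.42 without WT replicate 2. For the strongest class the median of 0.13 was 0.0874 without KO replicate 2 and turned to -0.0199 after quantile normalization.

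**Figure D3:**
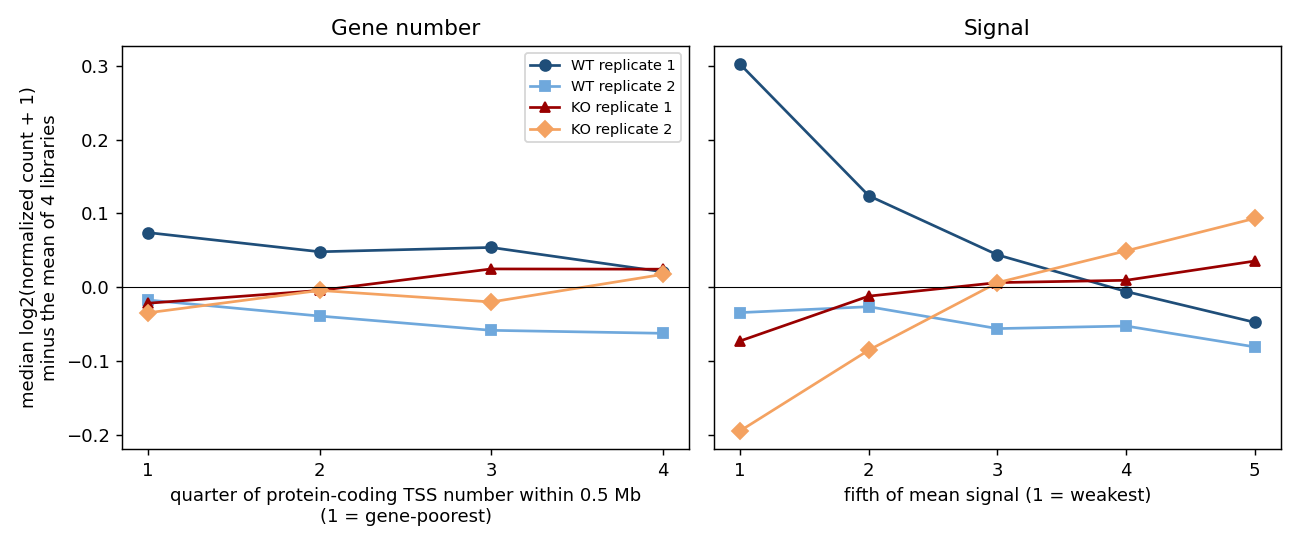
Median log2(normalized count + 1) of promoter sites in each library, minus the mean of the 4 libraries, by class of gene number (left, 1 is the gene-poorest) and by class of mean signal (right, 1 is the weakest). The 4 values of a class sum to 0, so the lines show relative shifts only. Both KO lines end higher than they start in both panels and both WT lines end lower, with the widest shift in WT replicate 1 by signal (from 0.30 to -0.0477).

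Rises at strong promoters were small and tied to certain chromosomes. At an unadjusted p under 0.01 (limma) with no fold limit, 28 promoter sites were higher in KO (0.291%, background 0.205%) and 27 lower (0.281%, background 0.315%). Together, 55 promoter sites passed, fewer than the 1% that this threshold alone would give if no site differed. All 28 were under 2-fold, with log2 fold changes from 0.30 to 0.87, and 27 of them were at or above the median signal. Of the 28, 12 lay on chromosome 19 and 7 on chromosome 15, and 9 on all other autosomes. The largest was Cyba, a subunit of the phagocyte oxidase, at 110 and 96 in WT and 187 and 191 in KO (chromosome 8). On chromosome 19, Tle4, a corepressor, stood at 588 and 650 in WT and 938 and 868 in KO, and Osbp, an oxysterol carrier, at 825 and 934 in WT and 1201 and 1355 in KO. Here the genotypes were apart in every library.

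Chromosome 19 as a whole differed in 1 library. The median promoter site on it had 214 and 195 in WT, 278 in KO replicate 1 and 200 in KO replicate 2 (357 sites). On chromosome 15 KO replicate 1 was also the highest, at 209 against 176.5 to 181 in the others. On chromosome 14 it was WT replicate 1 that stood apart, at 223 against 153 to 160 (323 sites), and 5 of the 25 called sites lie there. On chromosome 7 KO replicate 2 was the highest, at 195 against 171 to 184 (661 sites). The part of copy number in these shifts was not tested. Without chromosomes 14, 15 and 19, an alternative chosen after seeing the data, 17 of the 25 called sites remained, as the limma fit was not repeated. The KO minus WT difference in the gene number gap was then -0.0846. Without chromosome 7 as well the values were 16 and -0.0788.

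**Figure D4:**
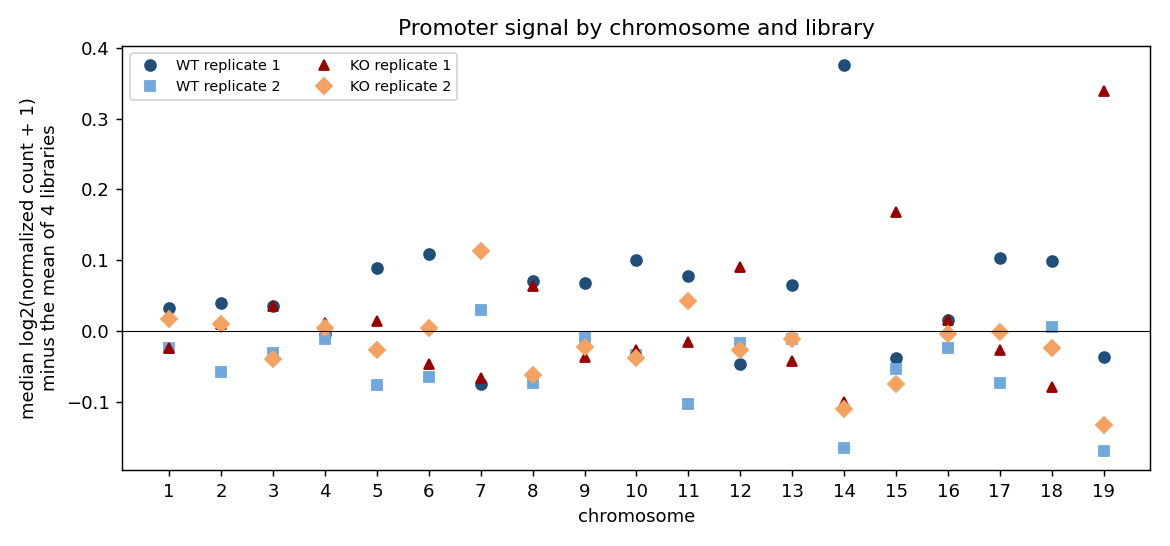
Median log2(normalized count + 1) of promoter sites on each autosome, minus the mean of the 4 libraries, 1 point per library. WT replicate 1 stands apart on chromosome 14 and KO replicate 1 on chromosomes 15 and 19, and KO replicate 2 is the highest on chromosome 7.

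Many large falls came from a single KO line. In KO replicate 1, 52 promoter sites (0.541%, against 1.16% of all sites) had a value + 1 at most one part in 4 of that in every other library. There were 3 such sites in KO replicate 2 (0.0312%, against 0.265% of all sites) and 3 in WT replicate 2 (0.0312%, against 0.109%). WT replicate 1 had 0, against 0.0231% of all sites. KO replicate 1 thus had the most such sites over all sites too, and each promoter share was below that of all sites. Of the 52, 37 lay in the gene-poorest class and 1 in the gene-richest, which held 25.8 and 24.7% of all promoter sites. Pcdh9, a protocadherin, had 214 and 190 in WT, 6 in KO replicate 1 and 256 in KO replicate 2. Sdk1, a synaptic adhesion protein, had 197 and 201 in WT, 9 in KO replicate 1 and 272 in KO replicate 2. Epha7, an ephrin receptor, had 279 and 291 in WT, 41 in KO replicate 1 and 399 in KO replicate 2. In these 3 genes KO replicate 2 was the highest of the libraries, and none was called. The serotonin receptor gene Htr1b was also lowest in KO replicate 1 at both of its promoter sites, which had 22 there and at least 129 elsewhere. KO replicate 2 was the highest at neither. It had 164 against 144 and 177 in WT at the site nearer the TSS, and 129 against 155 and 157 at the other. Lmcd1 was the converse, with 172 and 177 in WT, 208 in KO replicate 1 and 8 in KO replicate 2.

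Low promoters and low surroundings went together. Of the 9512 promoter sites with at least 5 distal sites within 0.5 Mb, 199 lay where the distal mean log2 fold change was -0.5 or lower. Their library medians were 122 and 113 in WT, 61 in KO replicate 1 and 96 in KO replicate 2, with 60 sites (30.2%) at least 2-fold lower and 10 called. Between 0 and 0.5 the 4185 promoters had 36 such sites (0.860%) and 1 called. Across promoter sites the Spearman correlation with the distal mean was 0.22 for KO against WT. It was 0.25 for the difference between the WT lines and 0.29 for that between the KO lines.

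A rise of at least 2-fold was found at 15 promoter sites (0.156%, against 1.59% of all sites), and none was called. Mmp23, a metalloprotease, had 80 and 50 in WT and 227 and 125 in KO (log2 fold change 1.40, SE 0.40). Cxcr6, a chemokine receptor, had 16 and 15 in WT and 54 and 36 in KO. Zfp951, a zinc finger gene, had 137 and 64 in WT and 281 and 203 in KO. Its sequence is mostly repeated, with 32.4% of the 31-base words unique, as is that of Tagap1 (21.2%), and both values are uncertain for that reason. The genotypes were apart at these 3 and at Tagap1, Rsad2, Phf11d, Ccl9, Wnt16, Krtap5-5, Gm7075 and Gm765. At Gm765 the rise came from KO replicate 2, with 4 and 4 in WT and 5 and 27 in KO. At Derl3 and Zfp429 the change came from WT replicate 2, which had 16 and 20 against at least 93 in the other libraries.

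Sites clustered around the TSS. Midpoints lay within 250 bp of the TSS at 6075 sites (63.2%), at or downstream of it at 67.6%, and 76.0% of sites contained the TSS. The median value per kb of site was highest for midpoints 1 to 250 bp upstream, at 252 to 270 in the libraries, and 169 to 199 for midpoints more than 500 bp away on either side. Just inside the 1 kb limit, sites with midpoints more than 900 bp out had library medians of 76 to 87, and sites just outside it, up to 1100 bp out, had 69 to 82. With the limit at 0.5 kb, 23 of the 25 called sites remained, from the same limma fit.

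**Figure D5:**
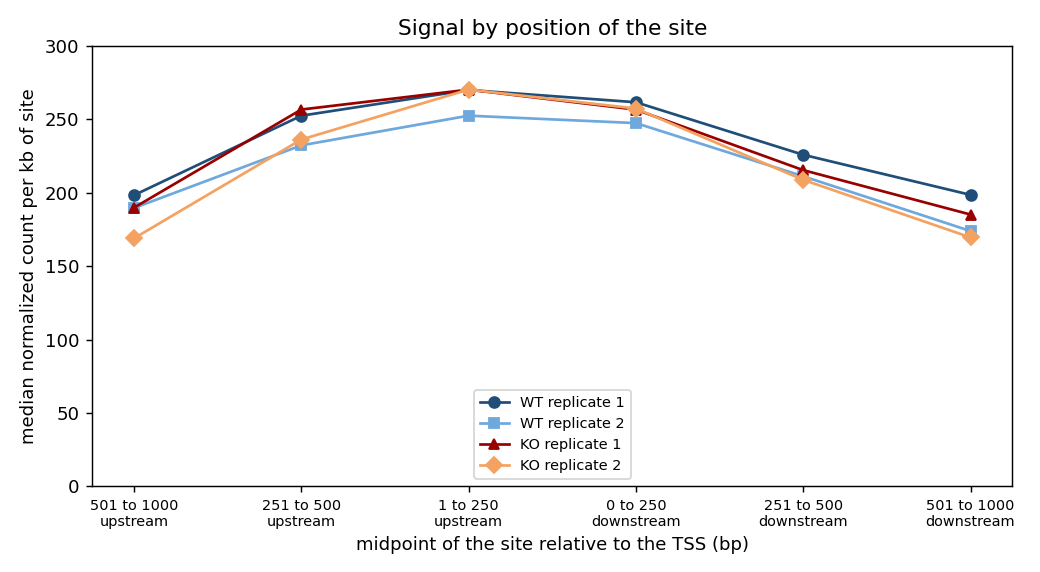
Median normalized count per kb of site in each library by the position of the site midpoint relative to the TSS. The 4 libraries follow the same curve, with the highest values from 1 to 250 bp upstream (252 to 270) and the lowest beyond 500 bp (169 to 199).

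Short motifs were counted by their letters alone. In the 300-base promoter windows, a GC box was in 62.9% of the genes with such a site and in 43.7% of all protein-coding promoters, a TATA box (TATAAA) in 7.88 and 12.7%, and a CCAAT box in 37.7 and 38.6% (both strands in each case). Within CpG-rich promoters, those with a CCAAT box had a higher median signal per kb than those without in each library, at 308 against 248 and 290 against 227 in WT, and 307 against 239 and 310 against 234 in KO. The printed stretches of the strong promoters Gsk3b, Jun and Khsrp hold this motif, in Khsrp on the other strand. Median log2 fold changes in CpG-rich promoters were 0.0589 with the box and 0.0024 without it.

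Of the 95 promoter sites of fibroblast, epithelial, endothelial, blood cell, neural, muscle, germ line, housekeeping, DNA replication and chromatin assembly, cell cycle and nuclear lamina genes, limma called 0 in either direction. At the share called over all promoter sites (0.260%) fewer than 1 of 95 would be called, so this count says little. At an unadjusted p under 0.05 there were 4 (4.21%, beside 3.78% of all promoter sites), Vim and Gapdh higher in KO and the 2 sites of Syt1 lower. The median of the log2 fold changes was 0.13 over 13 housekeeping sites, 0.13 over 15 replication and chromatin assembly sites, 0.0437 over 17 cell cycle sites, 0.0607 over 9 nuclear lamina sites and 0.0635 over 21 fibroblast sites, beside 0.0159 over all promoter sites. In the same order, 8, 9, 5, 7 and 7 of these sites lay in the strongest of the 5 signal classes. The median over that class was itself 0.13, and -0.0199 after quantile normalization. Among the replication genes, Asf1a, a histone chaperone, had 422 and 402 in WT and 444 and 556 in KO, and Mcm2, a helicase subunit, had 229 and 190 in WT and 218 and 283 in KO. Lmna, which encodes lamins A and C, had 451 and 493 in WT and 540 and 510 in KO. The genotypes overlapped at Mcm2 and not at the other two. Syt1, a synaptic vesicle protein, was the one list gene with 2-fold lower sites, 2 in number: 150 and 110 in WT against 24 and 80 in KO at the TSS, and 72 and 41 against 15 and 26 upstream of it (log2 fold changes -1.52, SE 0.57, and -1.41, SE 0.48).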

How the data were processed

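ATAC-Seq was measured in 4 libraries of immortalized MEFs, 2 WT and 2 KO, named by replicate in accession order. Per the labels and the study's methods, reads were mapped by the authors to mm10 (BWA 0.7.12), peaks came from MACS2 2.1.0, and the genotypes were compared in DESeq2. The table they deposited holds 1 normalized count per site and library, used here as a score, because the authors had divided counts by a library factor and rounded them to whole numbers. Read filters, multiply mapped reads and the Tn5 offset were not given in the sources used here. The deposited log2 fold changes (raw and shrunken) and p-values (raw and adjusted) come from the authors' own DESeq2 comparison and were not used.

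Sites were placed on GENCODE gene starts, after each site was checked to end within its GRCm38 chromosome. Because values were not raw counts, limma 3.58.1 with an intensity trend (R 4.3.3) was fitted to log2(value + 1) over all 82325 sites, with Benjamini-Hochberg adjustment, and no count model was run. The pseudocount of 1 understates changes of low sites. The script was tested on simulated data. Medians per library were compared by exact permutation tests. Python 3.11.15, numpy 2.4.6 and pandas 2.3.3 were used. Uniqueness was the share of 31-base words, taken every 10 bases, that occur once in the genome. Alternatives were a pseudocount of 8, a mean of at least 20, equal totals, quantile normalization, no trend, a 0.5 kb limit, other definitions of the classes and leaving out each library.

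The sites, lists and tests were chosen with earlier results of these data known. The rule for named sites took called sites at or above the median signal (there were none), the 5 strongest sites, called list members and Hat1. All other sites were named after their values were seen, and 1 called site is not reported here. The depth behind the values is approximate, and read duplicates and counting error were not modelled.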

Additional observations from a re-analysis of the deposited data

How the results depend on the processing

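Calls at promoter sites numbered 25 as reported, 20 with a mean of at least 20, 28 with equal totals and 29 without the intensity trend (28 lower), and 0 at a limma adjusted p under 0.05 (364 at an unadjusted p under 0.05). Leaving out 1 library each gave 1 to 60 calls. These fits have 1 library in a genotype, which is assumed to vary like the other genotype. Of the 25 sites, 16 were still called without the trend, 23 with a pseudocount of 8 and 23 after quantile normalization. The median log2 fold change of 0.0159 reversed to -0.052 with equal totals and to -0.0684 after quantile normalization, and ranged from -0.0352 to 0.0608 when libraries were left out. The promoter to distal difference of 0.0045 reversed to -0.0812 after quantile normalization, to -0.0113 with a mean of at least 20 and to -0.0115 with unique sites, the last chosen after seeing the data, and ranged from -0.0415 to 0.0506 when libraries were left out. The strongest class reversed to -0.0199 after quantile normalization, and the gene-poorest class, at -0.0298, ranged from -0.0865 to 0.0179 when libraries were left out. The causes were not tested. The CpG gap stayed between -0.151 and -0.0313 and the gene number gap between -0.144 and -0.0788, the latter without chromosomes 7, 14, 15 and 19. That alternative, chosen after seeing the data, also left 16 of the 25 calls, from the same limma fit, and gave a promoter to distal difference of -0.0105. A DESeq2 fit needs raw counts and was not run. No paired analysis was possible because the genotypes share only 1 number in the labels (WT replicate 1 and KO replicate 2), its meaning is not given, and the replicate numbers follow accession order. Depth limits the weak promoters most, since KO libraries were the shallower ones.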

Other observations

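Families of genes differed in how many promoters were in the table and in their level. Cytosolic ribosomal protein genes had a site within 1 kb of the TSS in 76 of 90 cases and mitochondrial ribosomal protein genes in 72 of 78, while cytochrome P450 genes had one in 15 of 99, keratins in 7 of 49 and olfactory receptors in 7 of 1128. Over 55 sites of cytosolic ribosomal protein genes, library medians were 241 and 258 in WT and 267 and 299 in KO. The median log2 fold change was 0.17, 30 sites (54.5%) had both KO values above both WT values, and limma called 0, with 1 at an unadjusted p under 0.05. Initiation factor promoters (38 sites) had a median of 0.14 and 0 limma calls, with 3 at an unadjusted p under 0.05, all higher in KO. For the count of 30 the background is 14.6% of all sites, 19.5% of promoter sites, 22.3% of the fourth of the 5 signal classes and 46.0% of the strongest. Of the ribosomal protein sites 25 lay in the fourth class and 10 in the strongest, and of the initiation factor sites 7 and 17. The median log2 fold change was 0.0521 over the fourth class and 0.13 over the strongest. Families were defined by symbol with earlier results known.

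Solute carrier promoters, of membrane transporters, had library medians of 162 and 149 in WT and 141 and 122.5 in KO and a median log2 fold change of -0.10 over 184 sites, of which limma called 0 and 8 had an unadjusted p under 0.05 (3 lower, 5 higher). Of these sites 107 lay below the median signal, where the median over all promoter sites was -0.114. Voltage-gated potassium channel promoters (8 sites, 2 of them 2-fold lower) had medians of 59.5 and 43.5 in WT and 26.5 and 40.5 in KO and a median log2 fold change of -0.78, with 0 limma calls and 2 at an unadjusted p under 0.05, both lower in KO, and all 8 lay below the median signal. Of 13 serpin sites, 1 was called (Serpinb8) with a median of 0.014, and of 14 cytochrome P450 sites 1 was called (Cyp2j9) with a median of -0.12, beside 0.260% called over all promoter sites and 0.373% over all sites. Both genes were already among the largest falls. No reason for these differences was tested.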
